A study of Mus musculus with 2 samples.

Results

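The transcripts of 50 genes for tRNA modification enzymes and their partner subunits were examined in mouse bone marrow LSK cells, the lineage-negative fraction positive for Sca-1 and c-Kit that holds haematopoietic stem cells and multipotent progenitors. The genes are those of a list of symbols, and they cover 10 enzyme classes without the writers and erasers of N1-methyladenosine (m1A). All 50 were found among the 27998 genes of both count matrices. The study addressed what loss of Trmt6, a subunit of the tRNA m1A methyltransferase, does to these cells, and the comparison made here was of the other modification enzymes between the genotypes.

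There were 2 libraries of droplet 3′ RNA-seq, 1 for each genotype, from mice that the labels give as 3 months old. The WT library is labelled Trmt6fl/fl, with both Trmt6 alleles floxed and no Cre named, and the cKO library is labelled Trmt6fl/fl with MX1-cre. Mx1-Cre is driven by an interferon-inducible promoter, so it acts in many interferon-responsive cells and not in stem cells alone, and pIpC, an inducer of interferon, was injected to delete Trmt6 in mice on a C57BL/6 background. The study describes its controls for this experiment differently from the labels, as Trmt6+/+ mice that carry Mx1-Cre and received pIpC too, so whether the WT library carries floxed alleles or Cre cannot be settled here. The study used both sexes. The number of mice behind a library was not given in the sources used here. With 1 library per genotype there was no replicate and no test across samples. Every interval below is a 95% interval that covers counting error only, and a difference between the libraries cannot be told apart from a difference between genotypes.

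tRNAs are trimmed, folded and then altered at many bases by dedicated enzymes. Changes in the body of the molecule, such as methylation, dihydrouridine and pseudouridine, mostly serve folding and stability, whereas the elaborate changes at the wobble base of the anticodon and at the base next to the anticodon tune how codons are read. Several of these enzymes are partners in obligate complexes, so the levels of both subunits of a pair are of interest.

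After filtering, 8145 WT cells with 43082700 UMIs and 8476 cKO cells with 88134346 UMIs were used, and 19 cell barcodes occurred in both. The cKO cells were deeper, with a median of 10143.5 UMIs against 4279 in WT. Levels are therefore given as CPM, a gene's share of all UMIs of a library's kept cells, set so that all genes sum to 1000000, a scale on which the 3′ method counts 1 tag per transcript whatever its length. The libraries also differed in content. Of the genes behind the sort, Kit was lower in cKO (62.6 CPM in WT and 21.5 CPM in cKO) and Ly6a, which encodes Sca-1, was higher (33.9 and 142 CPM). All 7 neutrophil markers were detected in both libraries, with a summed level of 5822 CPM in WT and 7.999 CPM in cKO, and the 5 granulocyte-monocyte markers summed to 6574 and 742 CPM. The 4 globin genes summed to 30.2 CPM in WT and 248 CPM in cKO, and 3 plasma cell or plasmacytoid markers to 2.23 CPM in WT, where Mzb1 led, and 402 CPM in cKO, where Jchain led. The part of these differences in the results was not tested beyond the comparisons inside marker gates and without cells of other types.

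Trmt6 itself, as a check of the labels, was counted 2753 times in WT and 4431 times in cKO, which is 63.9 CPM (61.5 to 66.3) and 50.3 CPM (48.8 to 51.8), giving a log2 ratio of cKO over WT of -0.35 (-0.41 to -0.28). The direction was that of the labels, but 3′ tags outside the deleted part do not check a deletion, and which exons were floxed was not given in the sources used here. Its catalytic partner Trmt61a was 16.6 CPM in WT and 32.9 CPM in cKO, giving a log2 ratio of 0.99.

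The promoters of the members give their regulatory context. Sequences of 300 bases, from 250 before to 50 after an annotated start, were taken from RefSeq (GRCm38.p6) for the 45 members with an entry under their symbol, and 9 members had more than 1 start. Motifs that are often cited for growth and stress control were searched on both strands. The E-box CACGTG, the core recognised by MYC and related factors, was found in 7 of 45 members (15.6%), namely Mettl1, Osgep, Pus1, Pus3, Pus7, Qtrt1 and Trmt10a, and in 8.09% of all genes of the table. The ETS motif CCGGAAG was found in 13 members (28.9%) and in 9.93% of all genes, and the NRF1 motif GCATGCGC in 5 members (11.1%) and in 3.05% of all genes. The YY1 motif AAGATGGC was found in 2 members (4.44%) and in 3.19% of all genes. The ATF4 response element TGATGNAA was found in 1 member, Pus7, and in 4.51% of all genes. The shares of all genes here are over the 27025 genes of the table, whatever their level in these cells. Most members were detected at 5 CPM or more, so the 2 sets are unlike. In the members' promoters no match of a motif overlapped a match of a different motif, although the ETS matches of Tprkb on both strands overlapped each other, and a match is only a description of the sequence. The following promoters are shown because Qtrt1, Mettl1 and Pus1 hold the E-box and were among the members with higher levels in cKO, because Osgep holds the largest number of E-boxes among the members, and because Cdk5rap1 differed most between the libraries. Each is printed 5′ to 3′ on the strand of its gene, and capitals mark the letters of the motifs searched.
Qtrt1, chr9:21411587-21411886, plus strand: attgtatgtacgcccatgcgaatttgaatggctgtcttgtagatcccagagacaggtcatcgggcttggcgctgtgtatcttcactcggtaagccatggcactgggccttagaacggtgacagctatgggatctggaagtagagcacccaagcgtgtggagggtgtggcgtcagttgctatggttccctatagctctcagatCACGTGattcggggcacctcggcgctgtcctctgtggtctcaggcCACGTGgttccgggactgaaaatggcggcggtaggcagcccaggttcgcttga
Mettl1, chr10:127041682-127041981, plus strand: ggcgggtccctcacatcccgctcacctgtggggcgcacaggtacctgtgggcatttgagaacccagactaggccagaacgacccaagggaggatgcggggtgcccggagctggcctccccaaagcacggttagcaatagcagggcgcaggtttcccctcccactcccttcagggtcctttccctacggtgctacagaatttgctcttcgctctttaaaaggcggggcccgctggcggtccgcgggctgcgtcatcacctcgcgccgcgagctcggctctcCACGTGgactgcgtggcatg
Pus1, chr5:110780547-110780846, minus strand: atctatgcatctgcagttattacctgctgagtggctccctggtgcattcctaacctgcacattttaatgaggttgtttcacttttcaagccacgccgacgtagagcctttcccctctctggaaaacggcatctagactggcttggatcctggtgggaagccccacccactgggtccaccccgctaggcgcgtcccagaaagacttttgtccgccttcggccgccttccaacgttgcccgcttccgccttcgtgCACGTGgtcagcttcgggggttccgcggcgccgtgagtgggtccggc
Osgep, chr14:50924844-50925143, minus strand: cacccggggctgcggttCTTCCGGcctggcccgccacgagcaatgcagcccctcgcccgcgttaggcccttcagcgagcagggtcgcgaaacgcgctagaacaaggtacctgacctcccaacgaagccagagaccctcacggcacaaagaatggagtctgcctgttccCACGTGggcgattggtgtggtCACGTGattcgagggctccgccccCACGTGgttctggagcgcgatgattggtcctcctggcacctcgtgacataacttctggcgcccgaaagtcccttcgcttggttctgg
Cdk5rap1, chr2:154372670-154372969, minus strand: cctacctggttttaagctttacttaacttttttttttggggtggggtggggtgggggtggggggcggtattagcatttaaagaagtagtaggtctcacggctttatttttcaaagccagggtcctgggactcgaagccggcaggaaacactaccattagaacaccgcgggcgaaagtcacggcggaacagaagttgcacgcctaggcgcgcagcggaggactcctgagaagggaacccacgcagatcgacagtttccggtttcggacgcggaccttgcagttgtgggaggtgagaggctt
The Qtrt1 promoter held 2 E-boxes, those of Mettl1 and Pus1 held 1 each and that of Osgep held 3 beside 1 ETS motif. The Cdk5rap1 promoter held no match to any of the 5 motifs, which says only that these letters are not in this window.

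Most members were slightly higher in cKO. Of the 50 members, 47 reached 5 CPM in at least 1 library and were compared, and Trmt44, Adat1 and Adat3 stayed below that level in both. The log2 ratio was above 0 for 37 of the 47, beside 43.4% of all genes, and below 0 for 10, beside 56.6% of all genes. With TMM factors it was above 0 for 41 of the 47, beside 53.2% of all genes. The members' median ratio was 0.13, whereas the median over all 9145 genes at that level was -0.06. The members summed to 1695 CPM in WT (1682 to 1707) and 1946 CPM in cKO (1937 to 1955), which is 14.8% more. The counting interval of the ratio lay above 0 for 27 members, or 57.4%, beside 33.5% of all genes, and below 0 for 5 members, or 10.6%, beside 45.5% of all genes. Those 5 members were Trmt1l, Trmt10a, Nsun6, Elp2 and Trit1.

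Few members differed by much. A ratio of at least 1.5-fold in favour of cKO was seen in 4 of 47 members (8.51%), Cdk5rap1, Dus4l, Qtrt1 and Wdr4, and in 6.82% of all genes. A ratio of at least 1.5-fold in favour of WT was seen in 1 member (2.13%), Nsun6, and in 13.7% of all genes. The number of higher members depended on the scaling, since 6 others lay just under 1.5-fold: with TMM factors 10 members passed that fold upwards and 1 downwards, beside 9.48% and 10.7% of all genes. The additional members were Mettl1, Pus1, Elp4, Ctu2, Tyw5 and Yrdc. In the other direction, Qtrt1 was just under 1.5-fold in thinned cells and Wdr4 without cells of other types, each at a log2 ratio of 0.58. TMM moved the median of all genes from -0.06 to 0.03, and the members' median lay 0.20 above that of all genes without TMM and 0.19 above it with TMM. With the gates described further down weighted by their share of the WT UMIs, called the WT mix of gates below, the members' median was 0.25. Ratios with this mix have no interval. They lean on few cKO cells, since the granulocyte-monocyte gate held 12461935 WT UMIs but 91 cKO cells.

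**Figure D1:**
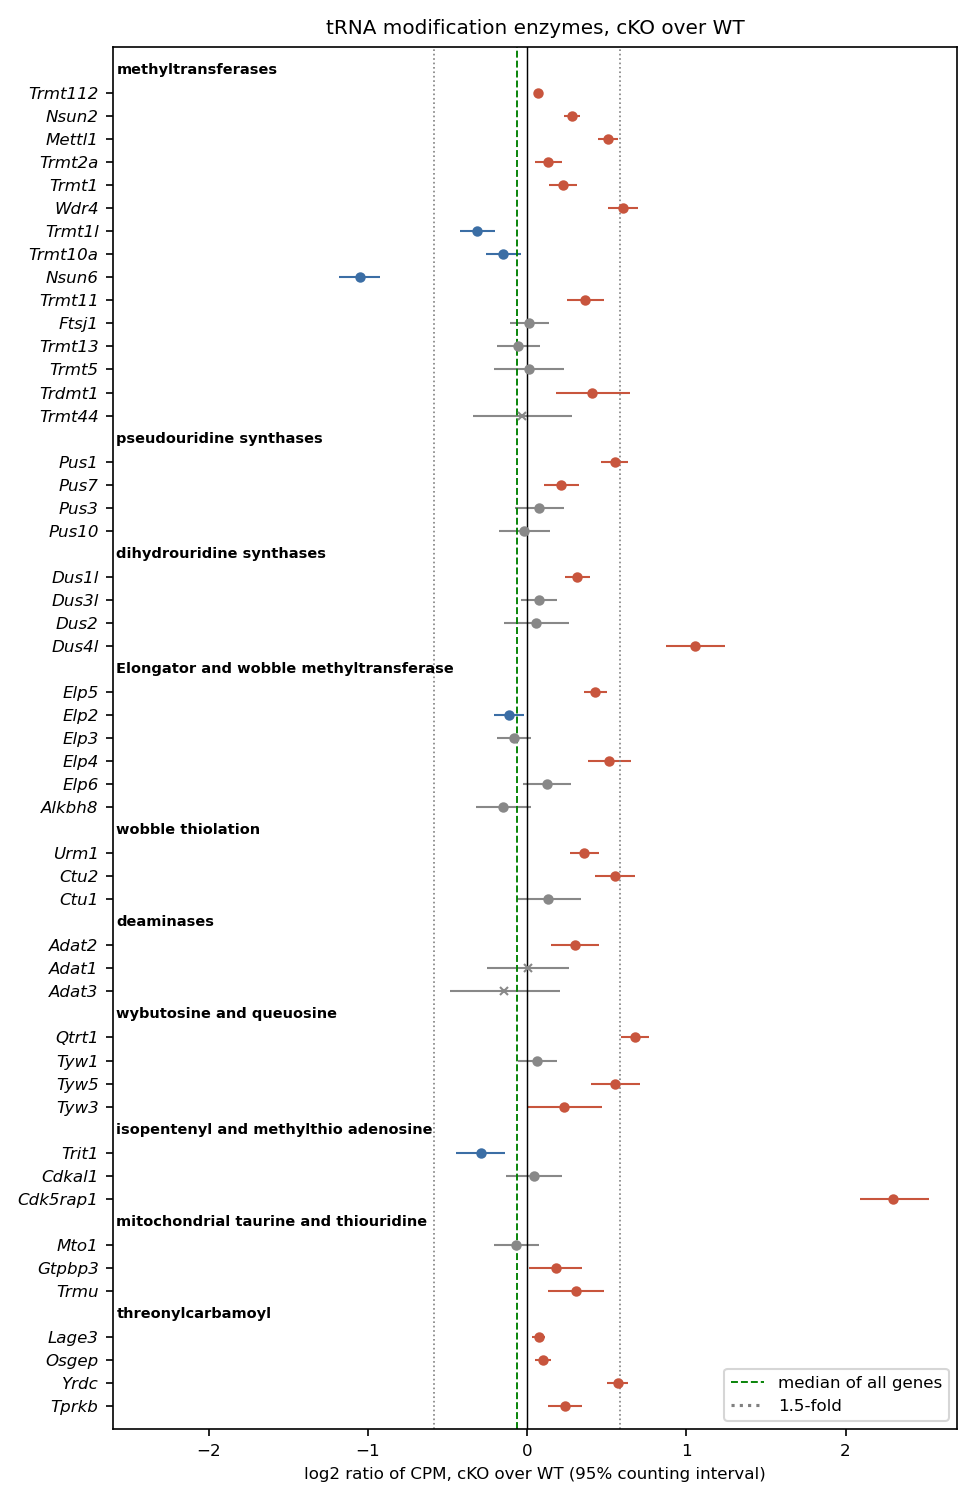
Log2 ratio of CPM, cKO over WT (horizontal axis), for 49 of the 50 members grouped by enzyme class, with bars for the 95% counting interval. Red points have an interval above 0, blue points below 0 and grey points span 0, crosses mark the 3 members under 5 CPM, dotted lines mark 1.5-fold and the dashed line is the median of all genes; Cdk5rap1 at 2.30 and Nsun6 at -1.05 lie farthest out.

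The methyltransferases formed the largest class, with 15 members, of which 14 were compared. Their median log2 ratio was 0.10, with 8 intervals above 0, beside 33.5% of all genes, and 3 below, beside 45.5% of all genes. Trmt112, the small activating subunit shared by several methyltransferases, was the most abundant member of all, with 434 CPM in WT (428 to 440) and 455 CPM in cKO (450 to 459), so its log2 ratio was only 0.07. Trmt11, one of its tRNA partners, was far less abundant, with 18.8 CPM in WT and 24.3 CPM in cKO. Trmt112 thus had 23.0 UMIs for each UMI of Trmt11 in WT and 18.7 in cKO. For Alkbh8, another of its partners, the ratio went the other way, with 43.6 in WT and 50.7 in cKO. Trmt112 also serves enzymes outside the tRNA set.

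Mettl1 and Wdr4 encode the catalytic and the supporting subunit of the enzyme that makes 7-methylguanosine in the variable loop. Mettl1 was counted 2586 times in WT and 7518 times in cKO, which is 60.02 CPM (57.7 to 62.4) and 85.3 CPM (83.4 to 87.3), giving a log2 ratio of 0.51 (0.44 to 0.57). Wdr4 was counted 1246 and 3867 times, which is 28.9 CPM (27.3 to 30.6) and 43.9 CPM (42.5 to 45.3), giving a log2 ratio of 0.60 (0.51 to 0.69). Both subunits were higher in cKO with intervals that did not overlap, and their ratio to each other was close in the libraries, with 2.08 Mettl1 UMIs for each Wdr4 UMI in WT and 1.94 in cKO.

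The 3 cytosine methyltransferases differed in direction. Nsun6, which methylates cytosine in the acceptor stem, was counted 1003 times in WT and 989 times in the deeper cKO library. That is 23.3 CPM (21.9 to 24.8) and 11.2 CPM (10.53 to 11.9), giving a log2 ratio of -1.05 (-1.18 to -0.92), or 2.07-fold more in WT. It was the one member past 1.5-fold downwards, and 433 of the 9145 genes had a ratio as low. Nsun2, which methylates cytosines in several arms of tRNA, was 103 CPM in WT and 125 CPM in cKO, giving a log2 ratio of 0.28 (0.23 to 0.33). Trdmt1, the cytosine methyltransferase once taken for a DNA enzyme, was at 4.94 and 6.58 CPM, giving a log2 ratio of 0.41 (0.18 to 0.65). Nsun6 and Cdk5rap1 both lie on chromosome 2, as do Trdmt1, Elp4 and Urm1, whose ratios went the other way from that of Nsun6.

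The remaining methyltransferases were closer to each other. Trmt1, which dimethylates guanosine at the junction of the D arm and the anticodon arm, was 34.4 CPM in WT and 40.2 CPM in cKO, giving a log2 ratio of 0.23, while its paralogue Trmt1l was 23.9 CPM (22.5 to 25.4) and 19.3 CPM (18.4 to 20.2), giving a log2 ratio of -0.31 (-0.42 to -0.20). The paralogues therefore lay on opposite sides of 0, each beyond counting error, although the ratio of Trmt1l was -0.13 when every cell was thinned to 2000 UMIs. Trmt10a, which methylates a guanosine between the acceptor stem and the D arm, was 23.3 CPM (21.9 to 24.8) in WT and 21.01 CPM (20.1 to 22.0) in cKO, giving a log2 ratio of -0.15 (-0.26 to -0.04). That ratio depended on the setting and the phase, since it was -0.05 with TMM factors, -0.31 in thinned cells and -0.53 (-0.74 to -0.32) in cells called G1, but 0.22 (0.06 to 0.39) in cells called G2/M, where Trmt10a was higher in cKO. Trmt2a, the maker of ribothymidine in the T loop, had a log2 ratio of 0.13, and Trmt11 one of 0.37. The intervals of Trmt5 (0.01), Ftsj1 (0.01) and Trmt13 (-0.05) spanned 0, as did that of the weakly detected Trmt44 (-0.04), and the sign of Trmt13 and Trmt44 changed with TMM factors.

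The 4 pseudouridine synthases were led by Pus1. It acts on both cytosolic and mitochondrial tRNA. Pus1 was counted 1508 times in WT and 4520 times in cKO, which is 35.0 CPM (33.3 to 36.8) and 51.3 CPM (49.8 to 52.8), giving a log2 ratio of 0.55 (0.47 to 0.64). Pus7 was 21.6 and 25.1 CPM, giving a log2 ratio of 0.21 (0.10 to 0.33). Pus3, which acts in the anticodon arm, was 12.02 and 12.7 CPM, and Pus10, which acts in the T arm, was 10.98 CPM (10.01 to 12.01) in WT and 10.8 CPM (10.2 to 11.6) in cKO. The intervals of the latter pair spanned 0, at 0.08 (-0.07 to 0.23) and -0.02 (-0.18 to 0.14). The class median was 0.15, and it was -0.003 in cells thinned to 2000 UMIs, where Pus3 was at -0.18. The sign of Pus10 also changed with the scaling.

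All 4 dihydrouridine synthases had a ratio above 0, beside 43.4% of all genes, with a class median of 0.19, although Dus3l was at -0.095 in thinned cells. Dus4l was counted 291 times in WT and 1238 times in cKO, which is 6.75 CPM (6.001 to 7.58) and 14.05 CPM (13.3 to 14.9). Its log2 ratio was 1.05 (0.87 to 1.25), or 2.08-fold, and 257 of 9145 genes had a ratio as high. Dus1l was the most abundant of the class, with 39.9 CPM in WT and 49.7 CPM in cKO, giving a log2 ratio of 0.32 (0.24 to 0.40). Dus3l (21.7 and 22.8 CPM) and Dus2 (6.78 and 7.06 CPM) had intervals that spanned 0, at log2 ratios of 0.07 and 0.06, and Dus2 was at 0.34 in thinned cells.

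The Elongator complex starts the side chain of modified wobble uridines, and Alkbh8 methylates that side chain. Elp3 and Elp2 of the catalytic core were nearly level. Elp3, the catalytic subunit, was 25.5 CPM in WT and 24.1 CPM in cKO, giving a log2 ratio of -0.08 (-0.19 to 0.02) whose sign changed with TMM factors. Elp2, a further subunit of the core, was 33.7 and 31.1 CPM (-0.11, -0.21 to -0.02), although the ratio of Elp2 was as high as 0.17 under the alternatives and changed sign in thinned cells, in G1 cells and with the WT mix of gates. The accessory subcomplex of Elp4, Elp5 and Elp6 had ratios above 0. Elp4 was 13.7 CPM (12.6 to 14.9) and 19.6 CPM (18.7 to 20.6), giving a log2 ratio of 0.52 (0.38 to 0.65), and 0.33 in cells called G1. Elp5 was 49.9 CPM in WT and 67.2 CPM in cKO, giving a log2 ratio of 0.43 (0.36 to 0.50), and Elp6 was 12.4 and 13.5 CPM, at 0.12 with an interval that spanned 0. Alkbh8 was 9.96 CPM (9.04 to 10.9) in WT and 8.96 CPM (8.35 to 9.61) in cKO, giving a log2 ratio of -0.15 (-0.32 to 0.02), the lowest of the class, which turned to 0.016 with the WT mix of gates.

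The thiolation genes, which place sulfur on the same wobble uridines, were higher in cKO as a class, with a median of 0.36, although Ctu1 was at -0.009 in cells called G1. Urm1, the ubiquitin-like sulfur carrier, was 32.2 CPM in WT (30.5 to 33.9) and 41.3 CPM in cKO (40.0 to 42.7), giving a log2 ratio of 0.36. Ctu2 was 15.8 CPM (14.6 to 17.0) and 23.2 CPM (22.2 to 24.2), giving a log2 ratio of 0.55 (0.43 to 0.68), whereas its partner Ctu1 was 6.82 CPM (6.07 to 7.65) and 7.49 CPM (6.93 to 8.08), a ratio of 0.13 whose interval spanned 0. Ctu1 thus had 0.432 UMIs for each Ctu2 UMI in WT and 0.323 in cKO. A gene model on the same strand overlaps the 3′ end of Ctu2, so the count of Ctu2 is uncertain.

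Among the deaminases that make inosine, only Adat2 reached 5 CPM. It was 11.7 CPM (10.7 to 12.7) in WT and 14.4 CPM (13.6 to 15.2) in cKO, giving a log2 ratio of 0.30 (0.15 to 0.45), and 0.10 in thinned cells. Its partner Adat3 was at 2.55 and 2.31 CPM and lies within overlapping gene models on the same strand, so its count is uncertain too. Adat1, which acts on alanine tRNA, was at 4.36 and 4.38 CPM.

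The 4 wybutosine and queuosine genes had a class median of 0.39. Qtrt1, the catalytic subunit of the enzyme that inserts queuine at the wobble base, was counted 1375 times in WT and 4504 times in cKO, which is 31.9 CPM (30.3 to 33.6) and 51.1 CPM (49.6 to 52.6). Its log2 ratio was 0.68 (0.59 to 0.77), or 1.60-fold. Its partner subunit, listed as Qtrtd1 and not among the 50 members, was 7.94 CPM in WT and 12.5 CPM in cKO, giving a log2 ratio of 0.65 (0.47 to 0.83), so both subunits of this enzyme were higher in cKO. Of the wybutosine genes, which build a bulky base beside the phenylalanine anticodon, Tyw5 was 10.96 CPM (9.99 to 11.99) and 16.1 CPM (15.3 to 16.9), giving a log2 ratio of 0.55 (0.40 to 0.71). Tyw3 was 4.99 and 5.88 CPM, at 0.23, and Tyw1 was 18.4 and 19.3 CPM, at 0.06 with an interval that spanned 0.

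The members that build isopentenyl and methylthio adenosines beside the anticodon held the widest split. Cdk5rap1 adds the methylthio group to mitochondrial tRNA, and Cdkal1 makes a related change on cytosolic lysine tRNA. Cdk5rap1 was counted 194 times in WT and 1957 times in cKO, which is 4.50 CPM (3.89 to 5.18) and 22.2 CPM (21.2 to 23.2). Its log2 ratio was 2.30 (2.09 to 2.52), or 4.92-fold, and 58 of 9145 genes had a ratio as high. At 2000 UMIs a cell, a UMI of it was seen in 1.11% of the WT cells (0.89 to 1.36) and in 4.05% of those of cKO (3.63 to 4.49), and no cell type is known to lack this gene, so a background share could not be set. The gene lies on chromosome 2, chr2:154335380-154373010 on the minus strand (GENCODE M21, GRCm38), and the 6 other genes within 500 kb that reached 5 CPM had log2 ratios from -0.60 to 0.90. Cdkal1 was 9.31 and 9.59 CPM, giving a log2 ratio of 0.04 with an interval that spanned 0. Trit1, which adds the isopentenyl group that Cdk5rap1 then modifies, was 12.8 CPM (11.8 to 13.9) and 10.47 CPM (9.81 to 11.2), giving a log2 ratio of -0.29 (-0.44 to -0.14). Cdk5rap1 and Trit1, which act in turn on the same base, therefore lay on opposite sides of 0.

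The other mitochondrial members were closer to level. Mto1 and Gtpbp3, partners in the taurine modification of mitochondrial wobble uridines, were 14.3 and 13.7 CPM (-0.07, -0.21 to 0.07) and 9.82 and 11.1 CPM (0.18, 0.01 to 0.35). The sign of Mto1 changed with TMM factors. Trmu, which adds sulfur to the same bases, was 8.84 CPM (7.98 to 9.78) in WT and 10.9 CPM (10.3 to 11.7) in cKO, giving a log2 ratio of 0.31 (0.13 to 0.48) that was 0.06 in thinned cells.

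All 4 threonylcarbamoyl genes had intervals above 0, beside 33.5% of all genes. Lage3 and Osgep turned below 0 with the WT mix of gates, which gives no interval, and Tprkb was lower in cKO in the stem gate. Yrdc makes the threonylcarbamoyl intermediate, which the KEOPS complex of Osgep, Tprkb, Lage3 and other subunits transfers to the adenosine next to the anticodon. Yrdc was counted 2546 times in WT and 7723 times in cKO, which is 59.1 CPM (56.8 to 61.4) and 87.6 CPM (85.7 to 89.6), giving a log2 ratio of 0.57 (0.50 to 0.63), and 0.34 in cells called G1. The KEOPS genes were closer to level. Lage3 was 159 CPM (155 to 162) and 167 CPM (164 to 169), giving a log2 ratio of 0.07 (0.03 to 0.11), or -0.080 with the WT mix of gates. Osgep, the catalytic subunit, was 106 and 114 CPM, at 0.10 (0.05 to 0.15) or -0.002 with that mix, and Tprkb was 22.9 and 26.9 CPM, at 0.24 (0.13 to 0.35) over all cells but 0.04 (-0.15 to 0.24) in cells called G1 and -0.81 (-1.35 to -0.21) in the stem gate.

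**Figure D2:**
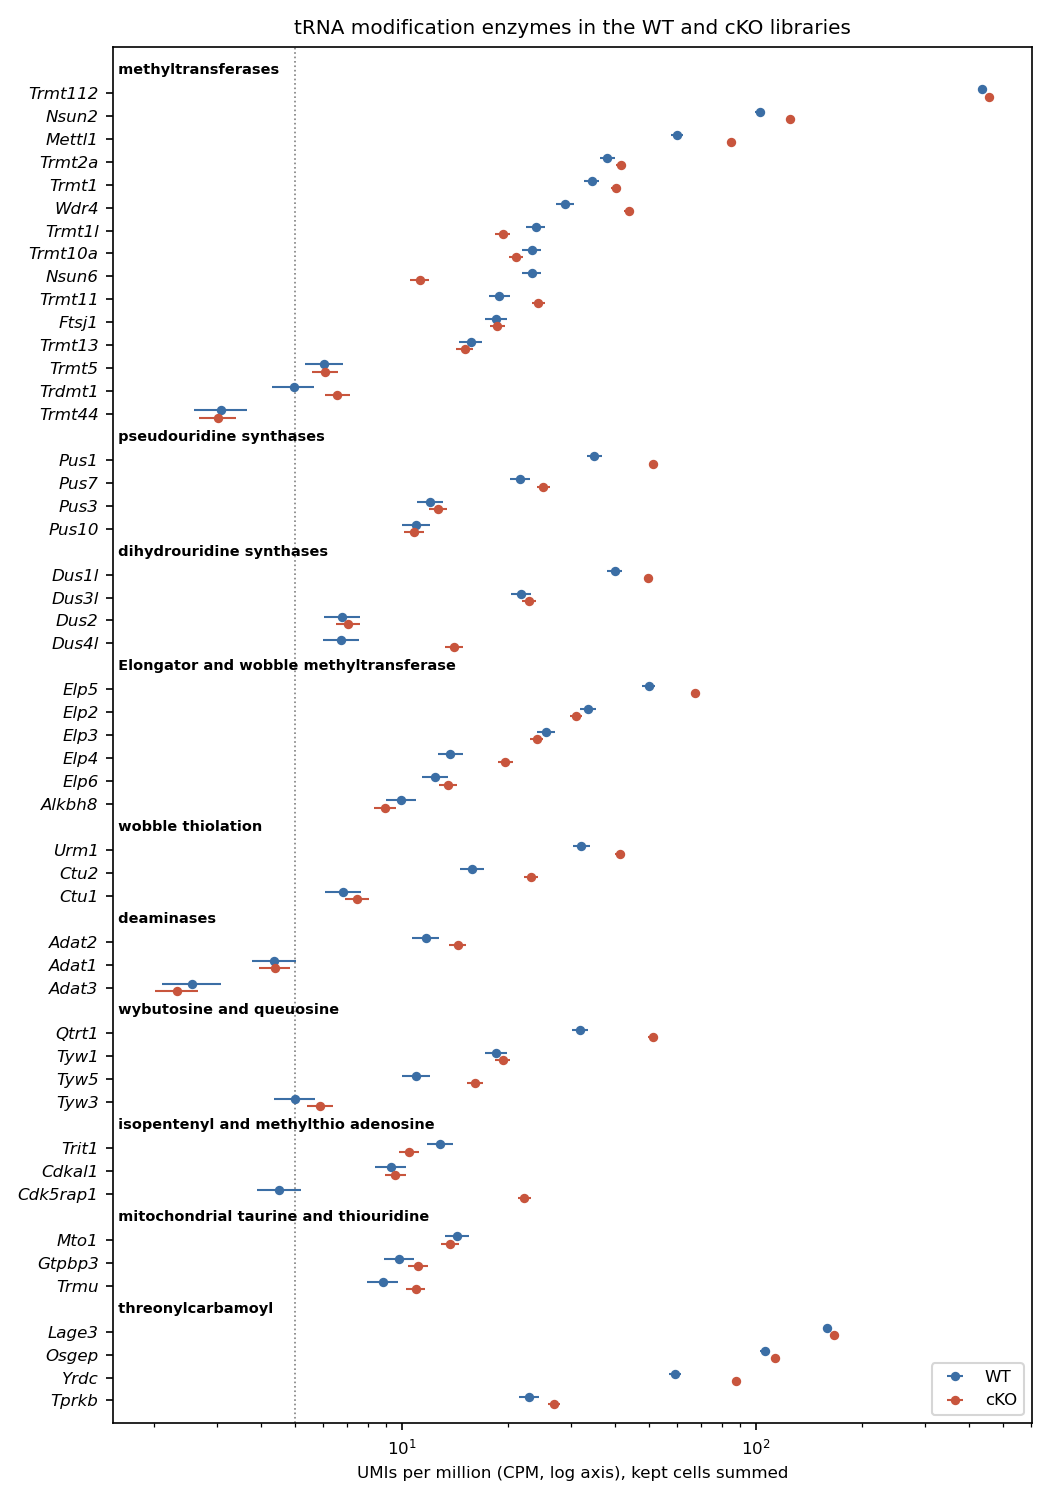
CPM on a log axis for 49 of the 50 members in WT (blue) and cKO (red), by enzyme class and in order of the WT level, with bars for the 95% Poisson interval and a dotted line at 5 CPM. Trmt112 leads at 434 and 455 CPM, Lage3, Osgep and Nsun2 follow at over 100 CPM in both libraries, and Adat3 is lowest at 2.55 and 2.31 CPM.

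The 7 members with CACGTG had a median log2 ratio of 0.21, with 6 of 7 above 0, and the 36 compared members with a promoter entry and without it had a median of 0.16. The 12 compared members with the ETS motif had a median of 0.17 beside 0.18 for the 31 without. The 5 members with the NRF1 motif had a median of 0.12, with 4 of 5 above 0, beside 0.22 for the 38 without. The 2 members with the YY1 motif, Mto1 and Trit1, were both below 0, with a median of -0.18 beside 0.21 for the 41 without. Of all 47 compared members, 37 were above 0, beside 43.4% of all genes, so the counts of the E-box and NRF1 groups were close to that of the members as a whole. These are descriptions of small groups. Of the 5 members past 1.5-fold in either direction, Qtrt1 held the E-box and Nsun6 held an ETS motif at 1 of its starts.

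Other genes of tRNA modification gave a comparison. Of a list of 31 further genes, 25 were found and 24 were compared. Their log2 ratio was above 0 for 13 and below 0 for 11, with a median of 0.02, where the 47 members had 37 above, 10 below and a median of 0.13. Of all genes, 43.4% were above 0 and 56.6% below, with a median of -0.06. Qtrtd1 was the lone gene of the list past 1.5-fold upwards, beside 6.82% of all genes. Lcmt2 (-0.68), a wybutosine enzyme, and Wdr6 (-0.62), the partner of Ftsj1 in anticodon-loop methylation, were past it downwards, beside 13.7% of all genes. Of the m1A genes, Trmt10c of the mitochondrial enzyme was nearly level at 0.06, the demethylase Alkbh1 was lower at -0.55 and the demethylase Alkbh3 higher at 0.43.

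The libraries hold different mixtures of progenitors, so the members were also compared inside marker gates. A gate is a range of marker UMIs in cells thinned to 2000 UMIs and not a cell type. The stem gate held 259 WT and 558 cKO cells, the lymphoid gate 717 and 202, the granulocyte-monocyte gate 1312 and 91, the megakaryocyte gate 104 and 31, and the gate set on erythroid markers, in which Car2 gave 92.8% and 96.4% of the marker UMIs, 1477 and 1719. A further 3429 and 5403 cells passed no gate, and 658 and 374 passed several. The mixture was not equal inside the gates either, since the median cell held 3 granulocyte-monocyte marker UMIs in WT and 1 in cKO in the stem gate, 2 and 0 in the lymphoid gate and 19 and 15 in the granulocyte-monocyte gate, and the part of this in the results was not tested. The summed level of the members was higher in cKO in each of these 7 groups, at 1600 to 1766 CPM in WT and 1820 to 1971 CPM in cKO, with an interval above 0 in all but the megakaryocyte gate (0.14, -0.003 to 0.28). In the stem gate the members summed to 1675 CPM in WT (1592 to 1762) and 1921 CPM in cKO (1881 to 1961), giving a log2 ratio of 0.20 (0.12 to 0.28), which was 0.08 (-0.11 to 0.29) when 3 stem markers were asked for and 48 and 91 cells were left.

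By direction alone, 13 of the 47 members (27.7%) were higher in cKO in all 7 groups, beside 12.4% of all genes, 1 (2.13%) was lower in all 7, beside 17.6% of all genes, and 33 went both ways. The 13 were Trmt5, Mettl1, Wdr4, Nsun2, Pus1, Dus1l, Elp5, Ctu2, Urm1, Tyw5, Qtrt1, Cdk5rap1 and Yrdc, and the single one was Nsun6. Some of these directions rest on few UMIs, since Trmt5, whose ratio over all cells was 0.01, had 3 UMIs in each library in the megakaryocyte gate. Cdk5rap1 was 3.32 CPM in WT and 27.8 CPM in cKO in the stem gate, 4.88 and 19.1 CPM in the lymphoid gate, 4.41 and 19.3 CPM in the granulocyte-monocyte gate and 5.36 and 22.7 CPM in the Car2-led gate. The stem value in WT rests on 3 UMIs and the ratio there, 2.85, had an interval from 1.49 to 5.36. The megakaryocyte gate held 2 of its UMIs in each library. Nsun6 was 25.4 and 10.4 CPM in the stem gate, 23.8 and 10.2 CPM in the lymphoid gate, 18.7 and 8.67 CPM in the granulocyte-monocyte gate and 27.3 and 12.05 CPM in the Car2-led gate, each beyond counting error. In the megakaryocyte gate its interval spanned 0. The Wdr4, Qtrt1 and Dus4l ratios had intervals above 0 in the granulocyte-monocyte and Car2-led gates, Wdr4 and Qtrt1 also in the lymphoid gate, and none of the 3 in the stem or megakaryocyte gates. In the stem gate Wdr4 was 24.3 CPM in WT and 36.5 CPM in cKO, Qtrt1 33.2 and 47.5 CPM and Dus4l 5.53 and 10.4 CPM. These values rest on few WT UMIs, since that gate held 904427 UMIs of all genes in WT.

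Mettl1 and 3 of the threonylcarbamoyl genes depended on the gate. Mettl1 was higher in cKO in the Car2-led gate, at 45.9 and 81.6 CPM (0.83, 0.64 to 1.02), but in the granulocyte-monocyte gate it was 76.2 and 78.0 CPM (0.04, -0.25 to 0.31), and its WT level was highest there among these groups. Osgep was 69.7 CPM in WT and 120 CPM in cKO in the stem gate (0.78, 0.41 to 1.19) and 118 and 87.4 CPM in the granulocyte-monocyte gate (-0.43, -0.70 to -0.18). Lage3 was 151 and 110 CPM in the granulocyte-monocyte gate (-0.45, -0.69 to -0.23) and 156 and 171 CPM in the Car2-led gate (0.13, 0.03 to 0.24). Tprkb was 39.8 CPM in WT and 22.9 CPM in cKO in the stem gate (-0.81, -1.35 to -0.21), on 36 and 108 UMIs, and was also lower in cells past several gates (-0.52, -0.997 to -0.05), whereas it was higher in cells past no gate, at 20.02 and 27.3 CPM (0.45, 0.28 to 0.62). Pus10, level over all cells, was higher in the lymphoid gate (1.14, 0.29 to 1.997) and in cells past no gate (0.27, 0.02 to 0.54).

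**Figure D3:**
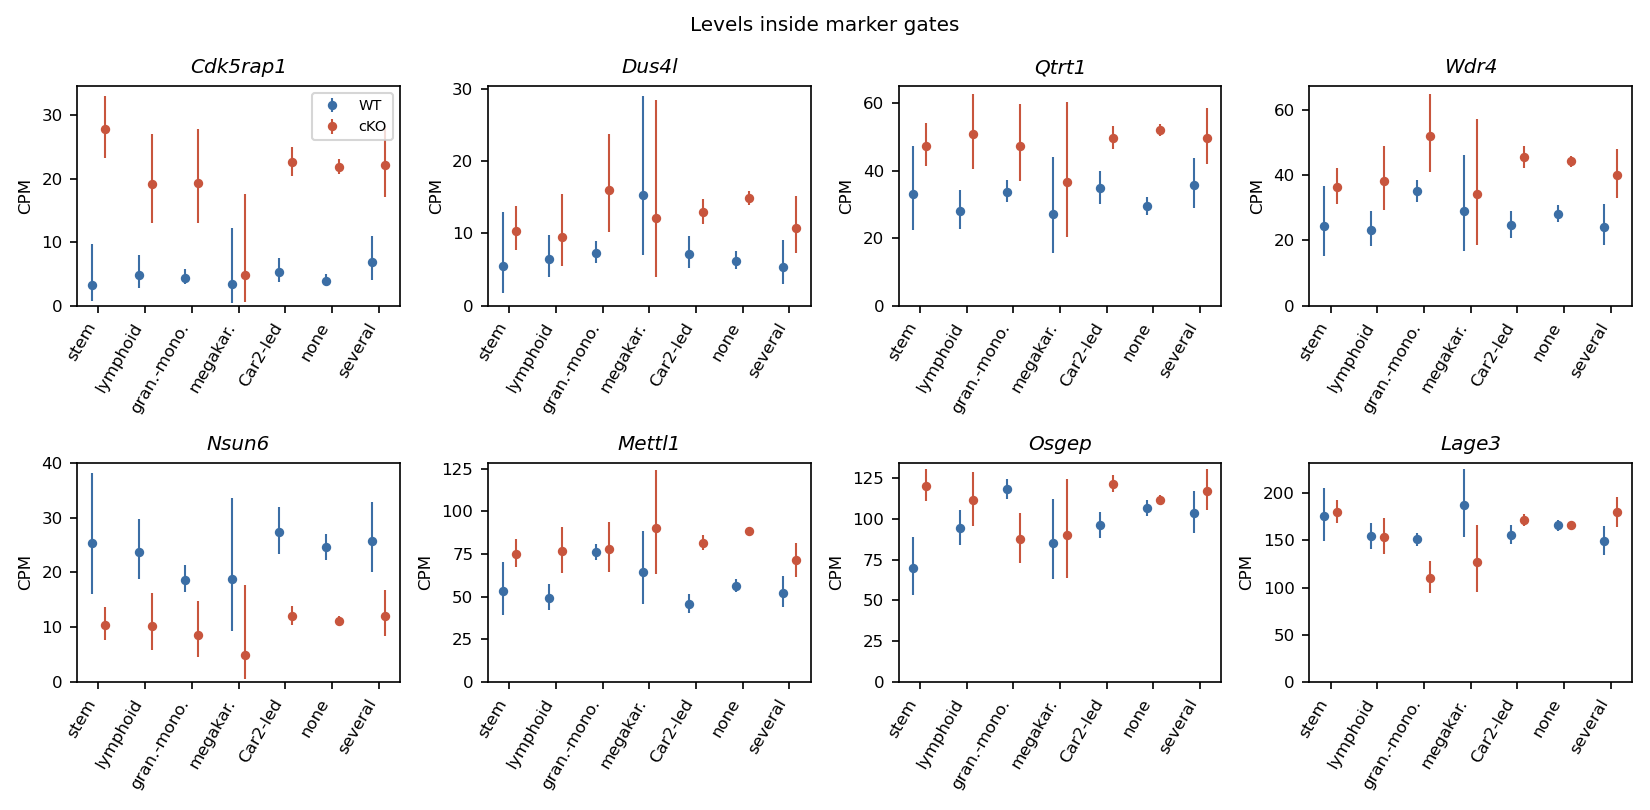
CPM of 8 members in WT (blue) and cKO (red) inside the 5 marker gates and in cells past no gate or several, with bars for the 95% Poisson interval and each vertical axis starting at 0. Cdk5rap1 lies between 19.1 and 27.8 CPM in cKO outside the megakaryocyte gate and Nsun6 is lower in cKO in every group, while Osgep changes direction between the stem and the granulocyte-monocyte gate.

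Within a library, the stem and the granulocyte-monocyte gates were compared with each other. Nsun2 was the 1 member of 47 (2.13%) that was lower in the stem gate beyond counting error in both libraries, beside 8.51% of all genes, and 0 members were higher there in both, beside 12.2% of all genes. Nsun2 had 81.8 CPM in the stem gate and 133 CPM in the granulocyte-monocyte gate in WT (-0.69, -1.06 to -0.36) and 114 and 201 CPM in cKO (-0.82, -1.03 to -0.61). In WT, 3 members (6.38%) were higher in the stem gate, namely Trmt10a, Ctu1 and Tprkb, beside 24.1% of all genes, and 5 (10.6%) were lower, namely Mettl1, Nsun2, Urm1, Cdkal1 and Osgep, beside 14.7% of all genes. In cKO, 5 members (10.6%) were higher, namely Trmt112, Trmt13, Pus3, Osgep and Lage3, beside 20.5% of all genes, and 9 (19.1%) were lower, beside 17.1% of all genes. Trmt10a had 38.7 CPM in the stem gate and 17.6 CPM in the granulocyte-monocyte gate of WT, but 20.2 and 15.3 CPM in cKO, where the interval spanned 0.

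The cell cycle was read from phase calls on thinned cells, which gave 3264 WT and 3158 cKO cells in G1, 1830 and 2590 in S and 2862 and 2630 in G2/M. The summed level of the members was higher in cKO in each phase, with log2 ratios of 0.19 in G1, 0.17 in S and 0.23 in G2/M. Trmt10a went the other way from its ratio over all cells in G2/M, with 22.9 CPM for WT and 26.7 CPM for cKO (0.22, 0.06 to 0.39), as did Pus10 in G1 (0.43, 0.10 to 0.78) and Trmt13 in S (0.29, 0.01 to 0.59), whose intervals over all cells spanned 0. Between cells called S or G2/M and cells called G1 of the same library, 8 members (17.0%) were higher in the former in both libraries beyond counting error, beside 17.7% of all genes, namely Mettl1, Wdr4, Ftsj1, Dus1l, Elp5, Elp6, Osgep and Lage3. The members' share was thus close to that of all genes. Elp6 was 9.29 CPM in G1 and 13.5 CPM in S or G2/M in WT (0.53, 0.23 to 0.86) and 10.6 and 14.8 CPM in cKO (0.48, 0.29 to 0.68). Lower in both libraries were 3 members (6.38%), Trmt1l, Pus3 and Dus3l, beside 24% of all genes. Pus3 had the largest drop, with 16.2 and 10.6 CPM in WT (-0.62, -0.88 to -0.35) and 16.3 and 11.1 CPM in cKO (-0.56, -0.74 to -0.38). The interval of Cdk5rap1 between these cells spanned 0 in both libraries, at 0.02 (-0.45 to 0.52) in WT and -0.09 (-0.23 to 0.05) in cKO. The WT interval is wide, with 50 UMIs in G1, so a moderate difference could not be seen there.

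**Figure D4:**
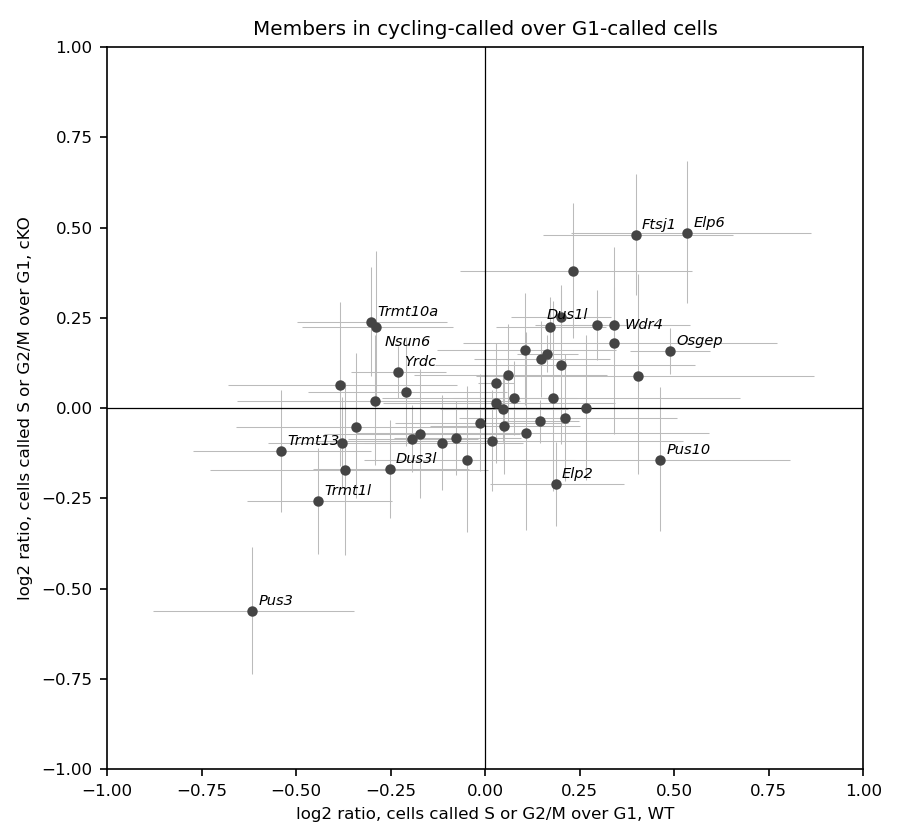
Log2 ratio of CPM in cells called S or G2/M over cells called G1, WT on the horizontal and cKO on the vertical axis, for the 47 members at 5 CPM or more, with bars for the 95% counting interval. Elp6, Ftsj1 and Osgep lie to the upper right, Pus3 to the lower left at -0.62 and -0.56, and Trmt10a, Nsun6, Yrdc and Elp2 lie in the quadrants of opposite sign.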

How the data were processed

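For each of 2 libraries the authors deposited 1 matrix of UMI counts by gene and barcode, built on GRCm38 by Cell Ranger 6.0.0. The labels name version 2 and the methods version 3 of the 3′ kit. Reads were not analysed here, and UMI collapsing removes PCR copies. The intervals cover counting error only, and thinning the cells to 1 depth moved some ratios beyond them. Thinning also discards UMIs and so adds counting error of its own, and the thinned ratios have no interval. Another setting kept all UMIs and scaled each cell to its own total. There, Trmt1l at -0.30, Dus2 at 0.07, Adat2 at 0.27 and Trmu at 0.17 lay inside the first intervals. Trmt10a at -0.32 and Yrdc at 0.42 lay outside them. The part of sampling in the thinned ratios was not tested. The study's limits on genes, mitochondrial and hemoglobin UMIs left 8763 of 8869 WT and 9151 of 9260 cKO barcodes. Its doublet caller was not run: simulated doublets among 50 neighbours marked 618 and 675 of these, which were removed. CPM were computed from UMIs summed over the kept cells. The log2 ratios, with 0.5 prior counts and exact conditional binomial intervals, the Poisson intervals and the Clopper-Pearson intervals used scipy 1.17.1 and were tested on simulated data. Genes at 5 CPM in a library were compared. Gates, phases and shares used cells thinned to 2000 UMIs, leaving out 189 WT and 98 cKO cells. The gates took 2 detected stem markers, 10 granulocyte-monocyte UMIs or 3 lymphoid, megakaryocyte or erythroid UMIs. TMM factors came from edgeR 4.0.16. No test across samples was possible.

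The members, lists and motifs were chosen with earlier results of these data known. The rule for named genes gave full values for the members with the highest and the lowest ratio in each class and for the 6 highest and 6 lowest of all, if they had 20 UMIs. Mettl1, Osgep, Nsun2, Elp5, Elp6 and Pus3 are given in full besides, chosen after their values were seen. Alternatives were other scalings, cell filters, thinning, minimum levels, folds, prior counts, the WT mix of gates and G1 cells. The values of 1 member, counted in the totals, are not reported here.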

Additional observations from a re-analysis of the deposited data

Results flagged for a closer look

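Opposite directions were seen for 4 members between cells called S or G2/M and cells called G1 in the WT and cKO libraries, each beyond counting error. Trmt10a had a log2 ratio of -0.30 in WT and 0.24 in cKO, Nsun6 -0.29 and 0.23, Yrdc -0.23 and 0.10, and Elp2 0.19 and -0.21. The difference between the libraries was not tested, and the share of all genes with such opposite directions was not counted.

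Osgep and Lage3, subunits of the same complex, went opposite ways between gates. The log2 ratio of cKO over WT was 0.78 in the stem gate, 0.34 in the Car2-led gate and -0.43 in the granulocyte-monocyte gate for Osgep, and 0.13 in the Car2-led gate, -0.45 in the granulocyte-monocyte gate and -0.55 in the megakaryocyte gate for Lage3. The difference between gates was not tested, and the share of all genes that went opposite ways between gates was not counted. The granulocyte-monocyte gate held 1312 WT and 91 cKO cells and the megakaryocyte gate 104 and 31.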

How the results depend on the processing

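Of 276 recomputed ratios of the 23 named members, 237 stayed inside the counting interval first given, 38 moved outside it and 1, Lage3 at -0.080 with the WT mix of gates, took the other sign from an interval that had lain above 0. In all, 14 ratios of 6 members took the other sign, and the first intervals of the other 5 members, Pus10, Alkbh8, Ctu1, Adat3 and Mto1, spanned 0. Cdk5rap1 stayed between 1.96 and 2.40, Dus4l between 0.83 and 1.16, Qtrt1 between 0.58 and 0.78, Wdr4 between 0.58 and 0.79 and Nsun6 between -1.42 and -0.95. The number of members at least 1.5-fold higher was 10 with TMM factors, 10 with median-of-ratios size factors, 10 when mitochondrial and ribosomal protein genes were left out of the total, and 2 at 2-fold. The number at least 1.5-fold lower was 1 under every alternative. The members' median became 0.23 with size factors, which moved the median of all genes from -0.06 to 0.04, and 0.25 with the WT mix of gates. Its distance from the median of all genes became 0.31 in G1 cells and 0.32 with the WT mix. The summed level in the stem gate became 0.083 with 3 markers. The share of cells with a UMI was lower in cKO in thinned cells but higher in unthinned cells, where the cKO cells are deeper, for 7 of the 23: Trmt10a (-0.938 and 7.52 points, the one whose thinned intervals did not overlap), Trmt1l (-0.409 and 6.53), Pus10 (-0.225 and 5.09), Alkbh8 (-0.236 and 3.67), Adat3 (-0.0479 and 1.01), Trit1 (-0.262 and 3.53) and Mto1 (-0.337 and 5.76). The cause of the other changes was not tested. No paired analysis was possible because each group held 1 library.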
